A study of Mus musculus with 6 samples.

Results

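Hematopoietic stem cells (HSCs) and multipotent progenitors are told apart by the proteins on their surface, and 10 genes that encode such proteins, *Cd34*, *Cd93*, *Ly6a*, *Slamf1*, *Cd48*, *Procr*, *Esam*, *Thy1*, *Emcn* and *Tek*, were followed here in fetal liver (FL) cells of wt and hnRNP L deficient embryos. They were chosen by name for their use in defining HSCs and multipotent progenitors, with earlier results of these data known. Each symbol was mapped to its mouse Ensembl gene identifier. All 10 were found among the 38293 genes counted, and all 10 passed the filter on low counts that left 14396 genes to test. *Cd93*, *Cd34*, *Emcn* and *Cd48* were lower in hnRNP L deficient cells, at 16.7% to 32.1% of the mean wt level. *Slamf1*, *Procr*, *Esam*, *Tek*, *Ly6a* and *Thy1* did not pass the test.

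The RNA came from FL Lin-cKit+ cells, the lineage-negative, c-Kit-positive fraction that holds stem and progenitor cells, sorted at E14.5 from 3 wt and 3 VavCre+ hnRNP L fl/fl (hnRNP L deficient) embryos of strain C57BL/6. Each library is from a single embryo. In the deficient embryos, the floxed alleles of *Hnrnpl* are removed in blood-forming cells by a Cre that the Vav promoter drives. The labels call the controls wild-type and do not say whether they carry floxed alleles, and they give the tissue as whole embryo but the source as fetal liver cells, while the sort is stated in the methods of the study.

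Reads on genes ranged from 55952160 to 76157226 per library, so that 3 reads corresponded to 0.0394 to 0.0536 CPM (reads of a gene scaled to a common library size, with the TMM method). The deleted gene, *Hnrnpl*, was at 552, 531 and 528 CPM in the wt embryos (replicates 1 to 3 here and below) against 242, 288 and 270 CPM in the deficient embryos (likewise), a log2 fold change of -1.01 ± 0.088 (SE, n = 3 per group, edgeR adjusted p = 0.0072). Reads of the gene were thus left in the deficient libraries, at 49.7% of the wt mean, and the deleted part was not read separately. *Kit*, which encodes the sorted receptor, lay between 325 and 656 CPM in the 6 libraries. Of 7 genes for antigens of the lineage antibodies used on FL cells, *Cd3e*, *Cd8a*, *Cd8b1*, *Ly6g* and *Klrb1c* were too low to be tested. *Ptprc* fell and *Itga2* did not pass the test. *Ptprc* was counted as a whole gene and not by the B220 form that the antibody binds, and the Ter119 antigen was not in this list.

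HSCs sit at the top of the blood hierarchy and give rise to multipotent progenitors, which lose self-renewal as they move towards single lineages. In the mouse, the SLAM family receptor CD150 (gene *Slamf1*) marks HSCs, whereas its relative CD48 is absent from most HSCs and appears on multipotent and more restricted progenitors. Sca-1 (*Ly6a*), EPCR (*Procr*), ESAM, Thy-1, endomucin (*Emcn*) and Tie2 (*Tek*) enrich for HSCs, several of them being shared with endothelium. CD34 and CD93, the latter known as AA4.1, are on HSCs as well as on progenitors of the fetal liver. The transcripts were measured in bulk, so fewer cells of a type and less RNA per cell cannot be told apart, and none of the values is a measure of protein.

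*Cd34*, *Emcn* and *Slamf1* are given first by the stretch of DNA before their start, because the former pair fell and the last did not. All 3 stretches hold AGGAAG, a form of the ETS motif. The sequences are from RefSeq promoters of GRCm38, on the plus strand, and were ended before the annotated start, with the letters AGGAAG, read on either strand, in capitals. RefSeq promoters were matched for 6 of the 10 genes.
*Cd34* chr1:194938571-194938818: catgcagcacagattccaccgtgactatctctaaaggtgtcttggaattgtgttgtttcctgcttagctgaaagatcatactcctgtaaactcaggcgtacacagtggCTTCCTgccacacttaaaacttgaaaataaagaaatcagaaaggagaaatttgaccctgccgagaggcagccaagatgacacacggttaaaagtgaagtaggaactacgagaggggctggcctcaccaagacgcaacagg
*Emcn* chr3:137340828-137341061: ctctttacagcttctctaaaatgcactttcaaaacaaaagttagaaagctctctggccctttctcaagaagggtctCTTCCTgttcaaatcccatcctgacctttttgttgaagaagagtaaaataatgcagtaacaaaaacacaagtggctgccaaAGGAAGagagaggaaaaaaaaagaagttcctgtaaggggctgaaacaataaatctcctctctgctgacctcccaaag
*Slamf1* chr1:171766882-171767126: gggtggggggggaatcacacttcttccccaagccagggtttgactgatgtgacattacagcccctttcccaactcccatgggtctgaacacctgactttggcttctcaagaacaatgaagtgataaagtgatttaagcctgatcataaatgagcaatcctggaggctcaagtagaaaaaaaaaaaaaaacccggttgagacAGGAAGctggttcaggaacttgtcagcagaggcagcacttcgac
AGGAAG was found in 35.4% of all 32851 promoters of the same length (250 bases before to 50 after the start). TGTGGT, a form of the RUNX motif, was in 16.8% and AGATAA, a form of the GATA motif, in 11.2%. Only these exact letters were searched, and other forms of the motifs were not. In their whole windows *Cd34*, *Emcn*, *Slamf1* and *Cd48* held AGGAAG, *Cd48* also TGTGGT, *Tek* AGATAA, and *Procr* none of them. The ETS letters thus stood before *Cd34* and *Emcn*, which fell, and before *Slamf1* alike. In *Cd48* they were in the whole window but not within the 250 bases before the start. A match is a description of letters and not a bound site.

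*Cd34* (ENSMUSG00000016494, chr1:194938819-194961279) encodes a sialomucin of stem cells, progenitors and endothelium. Its position, like those that follow, is from the GENCODE M21 annotation of GRCm38. Its level was 94.8, 234 and 123 CPM in wt against 28.5, 35 and 34 CPM in hnRNP L deficient cells. The lowest wt library stood well above the highest deficient library, and the wt libraries differed more among themselves than the deficient ones, with means of 151 ± 73.4 and 32.5 ± 3.54 CPM (SD, n = 3 each). The log2 fold change was -2.21 ± 0.35 (SE, edgeR quasi-likelihood test, adjusted p = 0.017).

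*Cd93* (ENSMUSG00000027435, chr2:148436640-148443563), a lectin-like receptor of early progenitors and endothelium, had the largest fall among the 10 genes. It was read at 32.7, 85.7 and 54.5 CPM in the wt libraries against 9.86, 11.0 and 8.12 CPM in the deficient ones. The deficient libraries were all below the wt libraries, and the order of the wt libraries was that seen for *Cd34*. The log2 fold change was -2.58 ± 0.36 (SE, edgeR adjusted p = 0.014), or 16.7% of the wt mean.

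*Cd48* (ENSMUSG00000015355, chr1:171682009-171705258), the GPI-anchored SLAM family member whose absence defines HSCs, was also reduced. The wt libraries had 21.5, 47.9 and 31.7 CPM and the deficient libraries 10.9, 11.2 and 10.4 CPM. The deficient embryos were nearly alike, with a coefficient of variation of 3.87% against 39.5% in wt. This was a log2 fold change of -1.64 ± 0.27 (SE, edgeR adjusted p = 0.016).

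*Emcn* (ENSMUSG00000054690, chr3:137341067-137432185) encodes endomucin, a sialomucin of HSCs and endothelial cells. It was a low transcript, with 1.51, 1.92 and 1.54 CPM in wt and 0.481, 0.581 and 0.335 CPM in hnRNP L deficient cells, the latter resting on 31, 38 and 25 reads. The groups were apart, and relative to its mean the wt level varied less here, with a coefficient of variation of 13.6% against 26.6% in deficient cells. This gave a log2 fold change of -1.83 ± 0.32 (SE, edgeR adjusted p = 0.017).

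*Tek* (ENSMUSG00000006386, chr4:94739289-94874976), which encodes the angiopoietin receptor Tie2, had 6.36, 7.39 and 6.03 CPM in wt and 5.87, 4.10 and 3.36 CPM in hnRNP L deficient cells. The groups did not overlap, but deficient replicate 1 was close to the lowest wt library. The log2 fold change of -0.57 ± 0.24 (SE) did not pass the test over all genes (edgeR adjusted p = 0.13).

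*Slamf1* (ENSMUSG00000015316, chr1:171767127-171801184), which encodes CD150, had 1.75, 3.14 and 3.25 CPM in wt and 4.43, 3.66 and 3.75 CPM in hnRNP L deficient cells. All deficient libraries were above all wt libraries, which no other of the 10 genes showed, and wt replicate 1 lay apart at the low end. The log2 fold change of 0.54 ± 0.28 (SE) did not pass the test (edgeR adjusted p = 0.20).

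The remaining 4 genes of the HSC surface overlapped between the genotypes. *Procr*, the receptor of activated protein C, had 0.324, 1.07 and 0.688 CPM in wt and 0.668, 1.16 and 1.03 CPM in hnRNP L deficient cells, with a log2 fold change of 0.46 ± 0.47 (SE, edgeR adjusted p = 0.51). *Esam*, an adhesion molecule of the immunoglobulin superfamily, had 1.31, 2.38 and 2.64 against 1.97, 1.74 and 1.67 CPM, with a log2 fold change of -0.24 ± 0.31 (SE, edgeR adjusted p = 0.61). For these genes the standard errors were as large as the differences or larger.

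*Ly6a* and *Thy1*, which encode the GPI-anchored proteins Sca-1 and Thy-1, were scarcely detected. *Ly6a* was read 10, 13 and 35 times in the wt libraries and 8, 20 and 14 times in the deficient libraries, with a log2 fold change of -0.52 ± 0.57 (SE, edgeR adjusted p = 0.54). *Thy1* was read 9, 38 and 6 times in wt and 6, 17 and 15 times in hnRNP L deficient cells, with a log2 fold change of -0.65 ± 0.81 (SE, edgeR adjusted p = 0.59). The sign of each rested on 1 library, since without wt replicate 3 the value of *Ly6a* was 0.05 and without wt replicate 2 that of *Thy1* was 0.62. Changes of these genes were not detectable at this depth. *Ly6a* has close relatives in the *Ly6* family. Reads that aligned to several places or fell on several genes are classes apart in the gene counts, and were left out as not assigned. How many of them came from *Ly6a* is not known.

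**Figure D1:**
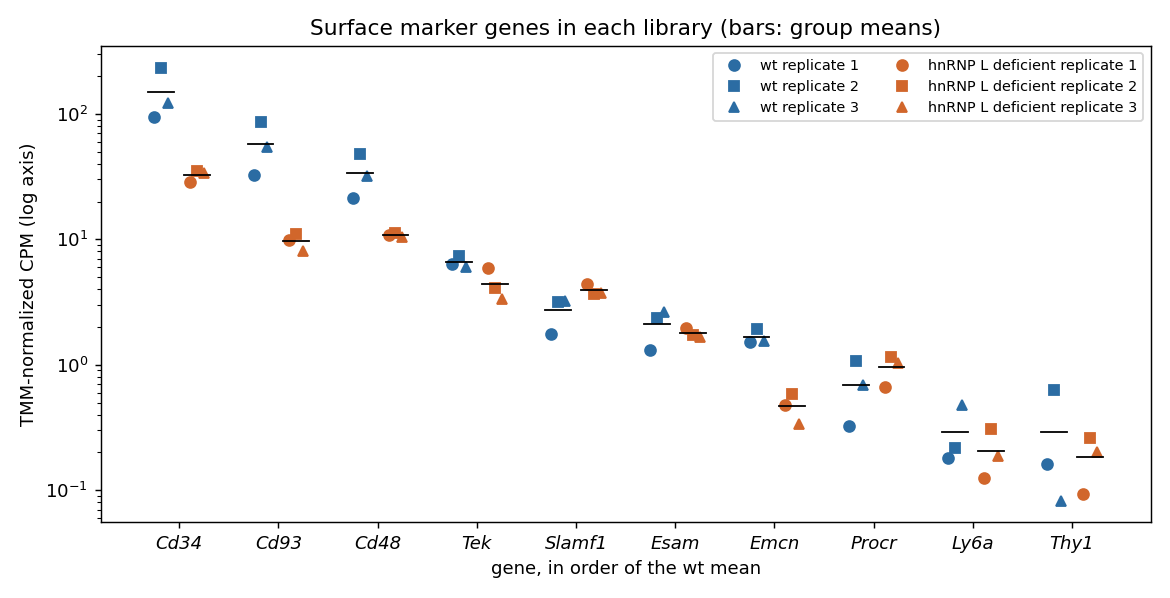
TMM-normalized CPM (log axis) of the 10 surface marker genes, in order of their wt mean, with a point for each of 3 wt (blue) and 3 hnRNP L deficient (orange) libraries and a bar at each group mean. *Cd34*, *Cd93*, *Cd48* and *Emcn* are lower in all deficient libraries, *Slamf1* is higher in all of them without passing the test, and *Ly6a* and *Thy1* are below 1 CPM throughout.

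Thus 4 of the 10 genes fell and 0 rose by the edgeR test, while over all 14396 genes 9.85% fell and 9.32% rose. At an unadjusted p under 0.05 there were 5 lower and 0 higher, against 20.1% and 17.6% of all genes. DESeq2 called 4 lower and 0 higher, against 14.3% and 12.4% of all genes with an adjusted p. With limma-voom 5 were lower, *Tek* being added (log2 fold change -0.69, adjusted p = 0.037), and 0 higher, against 19.3% and 17.9%. In 5 genes the deficient libraries all lay below the wt libraries, and in 1 gene all above, against 22.7% of all genes below and 22.7% above. The log2 fold change was negative in 8 of the 10, and its median was -0.61, against -0.026 over all genes tested. By their roles, 2 of 2 genes shared by HSCs and progenitors and the progenitor gene *Cd48* fell. The shared genes, *Cd34* and *Cd93*, had already been listed by the study as lower in the same data. Their fall, and the counts that include it, are therefore not an independent result. Of 7 genes listed as HSC surface markers *Emcn* fell, or 14.3% against 9.85% of all genes. The 7 had wt means of 0.293 to 6.59 CPM, and *Cd48*, *Cd93* and *Cd34* of 33.7 to 151 CPM. Role and level therefore cannot be told apart here.

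The calls depended on the libraries. Without wt replicate 3, or without any of the hnRNP L deficient replicates 1, 2 and 3, 0 of the 10 genes passed the test. *Cd34*, *Cd93*, *Cd48* and *Emcn* then had adjusted p of 0.053 to 0.097 (edgeR), and 4 or 5 of the 10 were lower at an unadjusted p under 0.05, against 13.1% to 18.2% of all genes. In the same fits the whole table gave 0 to 2 lower and 5 to 15 higher genes. Without wt replicate 1 or wt replicate 2, the same 4 genes passed, and their log2 fold changes over all 6 fits stayed between -2.86 and -1.30.

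**Figure D2:**
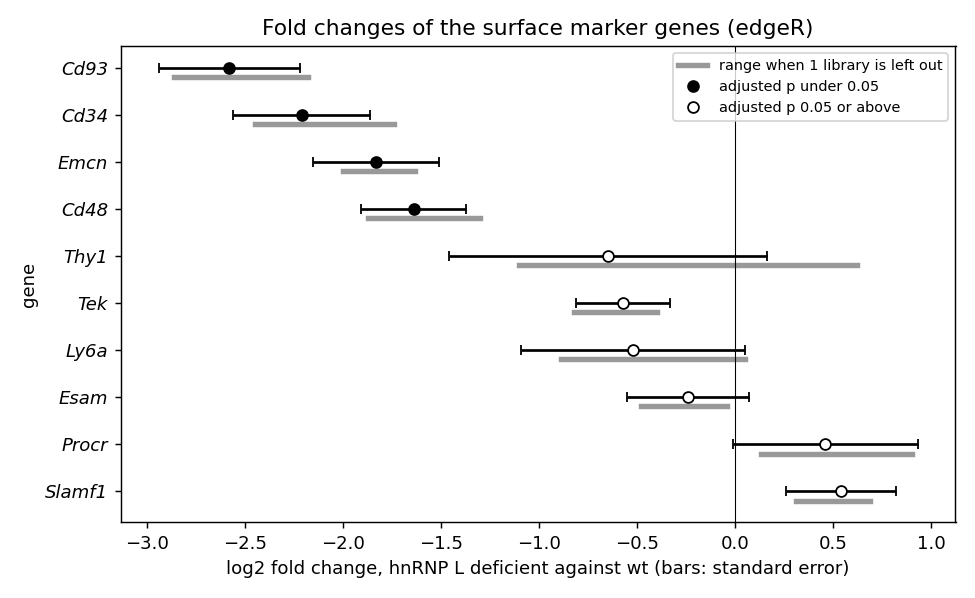
Log2 fold change of each gene, hnRNP L deficient against wt, with its standard error (black; filled where the edgeR adjusted p is under 0.05) and the range of the estimate when each of the 6 libraries is left out (grey). *Cd93* (-2.58), *Cd34* (-2.21), *Emcn* (-1.83) and *Cd48* (-1.64) stay below 0 in each such fit, whereas the ranges of *Ly6a* and *Thy1* cross 0.

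The spread among wt embryos had a shape of its own. Wt replicate 2 was the highest wt library for 7 of the 10 genes, *Cd34*, *Cd93*, *Cd48*, *Procr*, *Thy1*, *Emcn* and *Tek*, and the coefficient of variation was larger in wt than in hnRNP L deficient cells for 8 of the 10. Granulocyte and monocyte progenitor markers were also highest in wt replicate 2, their summed level being 611, 8230 and 1540 CPM in wt and 252, 808 and 764 CPM in hnRNP L deficient cells. Of these 11 genes, 3 fell (27.3%, against 9.85% of all genes) and 0 rose, with a median log2 fold change of -2.50. The part of these cells in the levels of *Cd34*, *Cd93* and *Cd48* was not tested. Without wt replicate 2 these 3 genes passed the test, with marker sums of 611 and 1540 CPM in the wt libraries then left. Wt replicate 1 and hnRNP L deficient replicate 1 carry embryo numbers with the same first part, and between them the log2 differences were -1.73 for *Cd34*, -1.72 for *Cd93*, -0.98 for *Cd48*, -1.47 for *Emcn*, -0.11 for *Tek* and 1.29 for *Slamf1*, values with no test.

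Because the CD150+ CD48- phenotype sets HSCs apart from CD48+ progenitors, the transcripts of *Slamf1* and *Cd48* were set against each other within each library. The log2 ratio of their CPM (each plus 0.1), *Slamf1* to *Cd48*, was -3.55, -3.89 and -3.25 in wt and -1.28, -1.59 and -1.44 in hnRNP L deficient libraries. The groups were apart, with means of -3.56 ± 0.32 and -1.44 ± 0.16 (SD, n = 3 each) and a difference of 2.13, for which the exact two-sided permutation test gave p = 0.1, the smallest that 3 libraries against 3 allow. Of the genes in the ratio, *Cd48* passed the test and *Slamf1* did not. CD150 is not confined to HSCs, since the study also gates multipotent progenitors that are CD150+ CD48+. The ratio in bulk RNA is therefore not a measure of the share of HSCs. The genes are neighbours on chromosome 1, 61.9 kb apart and on the same strand.

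**Figure D3:**
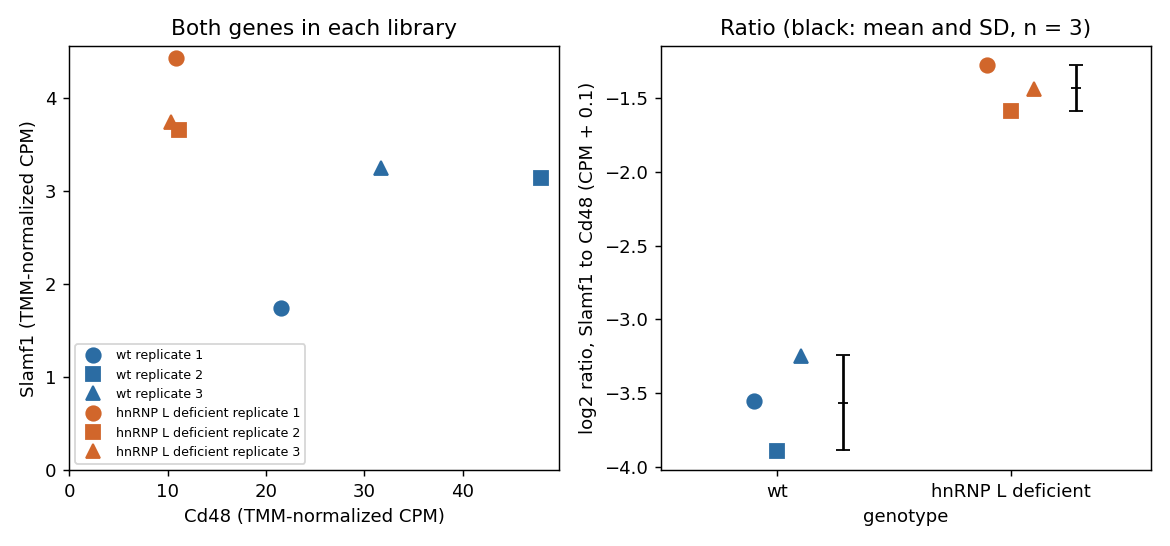
Left, CPM of *Slamf1* against CPM of *Cd48* in each of the 6 libraries. Right, the log2 ratio of *Slamf1* to *Cd48* per library by genotype with the mean and SD (n = 3), which was -3.56 in wt and -1.44 in hnRNP L deficient cells.

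The genes that fell were also set against each other within libraries, as a description. The log2 ratio of *Cd48* to *Cd93* was -0.60, -0.84 and -0.78 in wt and 0.14, 0.03 and 0.35 in hnRNP L deficient libraries, so that all deficient libraries were above all wt libraries. That of *Cd48* to *Cd34* also separated the genotypes, with -2.13, -2.28 and -1.96 against -1.38, -1.63 and -1.70. *Cd93* to *Cd34* overlapped, with means of -1.38 ± 0.19 and -1.75 ± 0.28 (SD, n = 3 each), and *Emcn* to *Cd34* overlapped too, with means of -6.32 ± 0.50 and -5.87 ± 0.37. These ratios were not tested.

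Levels of different genes were compared per kilobase of exon (CPM per kb, with exon lengths of the GENCODE annotation of GRCm38). Each length joins all annotated exons of a gene, whether used in these cells or not, and the order depends on these lengths. In wt, *Cd48* was the highest at 28.4 ± 11.2 CPM per kb, then *Cd34* at 20.7 ± 10.1, *Cd93* at 8.64 ± 3.99 and *Tek* at 1.40 ± 0.151 (SD, n = 3). *Esam* (0.737), *Slamf1* (0.440), *Procr* (0.341), *Emcn* (0.306), *Ly6a* (0.243) and *Thy1* (0.0978 CPM per kb) followed. Of the neighbours in this order, *Cd34* and *Cd93*, *Cd93* and *Tek*, and *Tek* and *Esam* did not overlap over the libraries, and the others did. In hnRNP L deficient cells *Cd48* (9.10), *Cd34* (4.46), *Cd93* (1.45) and *Tek* (0.943 CPM per kb) kept their order, followed by *Slamf1* (0.641), *Esam* (0.627), *Procr* (0.470), *Ly6a* (0.171), *Emcn* (0.0861) and *Thy1* (0.0617 CPM per kb). There *Cd48* and *Cd34*, *Cd34* and *Cd93*, *Esam* and *Procr*, and *Procr* and *Ly6a* did not overlap, and the other neighbours did. *Emcn* stood next above *Ly6a* in wt and next below it in deficient cells, and the libraries of the pair overlapped in both genotypes.

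The profile of each of the 3 most abundant genes was compared with those of 9582 genes of at least 5 CPM, by the root mean square difference of log2(CPM + 0.1) centred over the 6 libraries. For *Cd34* the most alike were *Appl2* (0.11 log2 units), *1700025G04Rik* (0.12) and *Rassf2* (0.14). For *Cd93* they were the chromatin organizer gene *Satb1* (0.15), *Cd27*, a TNF receptor family gene of multipotent progenitors (0.15), and *Pdgfrb* (0.17). For *Cd48* they were *Erg*, an ETS factor of HSCs (0.09), *Dock10* (0.10) and *Atp10a* (0.11). *Erg* was at 14.4, 34.2 and 20.1 CPM in wt and 6.79, 7.77 and 6.22 CPM in hnRNP L deficient libraries, and so repeated the wide wt and narrow deficient spread of *Cd48*.

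Other genes for surface proteins of stem and progenitor cells were taken from a list of 20. Of these, 10 fell and 0 rose (edgeR), 50% against the 9.85% over all genes, and the median log2 fold change was -1.0. Of the 4 most abundant, *Kit* (log2 fold change -0.62) and *Cd47* (-0.48) fell, whereas *Spn* and *Cd24a* did not pass the test. Among the others that fell were *Il7r*, *Flt3*, *Cd27*, *Ptprc*, *Robo4*, *Itga6* and *Eng*. *Flt3*, the cytokine receptor gene of lymphoid-primed multipotent progenitors, was singled out after its values were seen, and had 17.8, 44.0 and 28.2 CPM in wt and 2.86, 3.40 and 2.56 CPM in hnRNP L deficient libraries.

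Of 11 genes of the SLAM family and its adaptors, 5 were tested, and *Cd244a*, *Cd84* and *Cd48* fell. That was 60% of those tested, against 9.85% of all genes. *Ly9*, which like *Slamf1* did not pass the test, was at 10.2, 18.3 and 11.7 CPM in wt and 11.0, 12.9 and 10.2 CPM in hnRNP L deficient libraries. CD244, like CD48, is found on progenitors rather than on HSCs. *Cd244a* was at 2.11, 3.74 and 2.12 CPM in wt and at 0.513, 0.796 and 0.764 CPM in deficient libraries, and was named after its values were seen.

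Genes known from HSC reporters and HSC transcription were mixed. Of 10 such genes 9 were tested, and *Hoxa9*, *Fgd5*, *Hlf* and *Meis1* fell and 0 rose, with a median log2 fold change of -0.32. The share that fell was 44.4%, against 9.85% of all genes. The most abundant, *Gfi1b* (123 to 197 CPM in wt, 167 to 171 CPM in hnRNP L deficient), *Mllt3* and *Ctnnal1*, did not pass the test. *Fgd5*, a guanine nucleotide exchange factor gene whose reporter marks HSCs, had 9.33, 11.6 and 9.07 CPM in wt and 3.32, 3.17 and 2.97 CPM in deficient libraries, and was named after its values were seen. *Mecom*, an HSC transcription factor gene also named after its values were seen, had 3.44, 3.00 and 3.41 CPM in wt and 3.20, 3.86 and 2.20 CPM in deficient libraries. HSC-associated genes were therefore found both among those that fell and among those that did not pass.

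Ligands, receptors and other partners of the 10 proteins made a list of 11 genes. Of these 8 were tested, 6 fell (75%, against 9.85% of all genes) and 0 rose. *Angpt1*, the ligand of Tie2, was at 29.8, 44.0 and 34.7 CPM in wt and 14.4, 14.0 and 12.3 CPM in hnRNP L deficient libraries. *Tie1*, the sister receptor of Tie2, was at 9.63, 25.8 and 15.4 CPM in wt and 7.28, 7.74 and 6.67 CPM in deficient libraries. *Selp*, *Thbd* and *C1qa* fell as well. *F2r*, which encodes the thrombin receptor that activated protein C can cleave on EPCR, did not pass, with a log2 fold change of 0.27.

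Markers of other cells were read beside the 10 genes, since *Emcn*, *Tek*, *Esam*, *Cd34*, *Cd93* and *Procr* are also expressed by endothelium. The counts below stand beside 9.85% of all genes lower and 9.32% higher. Of 15 endothelial markers 13 were tested, and *Pecam1* and *Vwf* fell (15.4%) and 0 rose. Of the 13, 11 had a negative log2 fold change (median -0.60). Their summed level was 101 to 137 CPM in wt and 102 to 104 CPM in hnRNP L deficient libraries, of which *Egfl7* made up 59.6 to 68.8 CPM in wt and 75.7 to 78.5 CPM in deficient libraries. Without *Egfl7*, left out after its values were seen, the sum was 41, 72.1 and 53.2 CPM in wt and 25.1, 24.2 and 28.5 CPM in deficient libraries, lower in all of the latter. *Cldn5* and *Sox17* were too low to be tested. Of 10 macrophage markers 4 fell (40%) and 0 rose (summed 22 to 101 CPM in wt and 4.69 to 11.6 CPM in deficient). The most abundant of them, at 11.3, 69.3 and 27.6 CPM in wt, fell and is also in the granulocyte and monocyte list. *C1qa*, which fell too, is also in the list of partners, so these lists are not independent. Of 8 hepatocyte markers 2 fell (25%) and 0 rose (116 to 240 and 21.9 to 74.3 CPM). Of 7 tested lymphoid progenitor markers 4 fell (57.1%) and 0 rose (25.5 to 88.3 and 9.82 to 13.7 CPM). Macrophage, hepatocyte and lymphoid markers thus were lower in all deficient libraries by their sums. The endothelial sum overlapped between the genotypes with *Egfl7* and was apart only without it, when *Pecam1* and *Vwf* made up most of it. *Stab2* and *Sox18* were also lower in all deficient libraries, whereas *Cdh5*, *Kdr*, *Flt1*, *Flt4*, *Lyve1*, *Stab1*, *Ramp2* and *Nos3* overlapped. *Pecam1* had 13.5, 43.3 and 18.6 CPM in wt, and *Cdh5* 0.990, 0.384 and 1.29 CPM, so the wt order differed between them. The part of all these cells in the levels of the 10 genes was not tested. Of 12 erythroid markers 1 fell and *Car1* rose (8.33% each, near the shares of all genes, with a median log2 fold change of 0.00). Of 8 megakaryocyte markers 1 fell (12.5%), and *Gp1ba* and *Gp5* rose (25%). Of 5 tested mast cell markers 0 fell and 0 rose (edgeR), but all 5 had a negative log2 fold change (median -1.76). Their summed level was 62.0 to 179 CPM in wt and 57.1 to 81.9 CPM in deficient libraries. Over all these lists 35 of 111 tested genes fell (31.5%) and 3 rose (2.7%), with a median log2 fold change of -1.26.

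**Figure D4:**
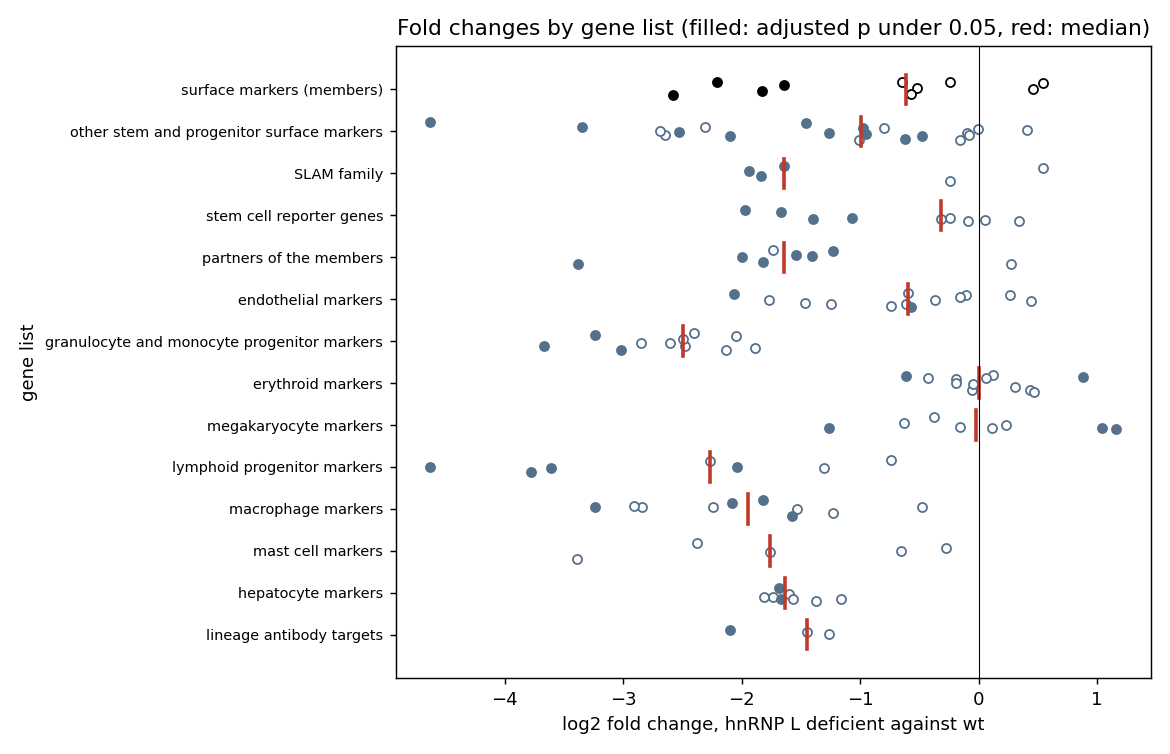
Log2 fold change of each tested gene, hnRNP L deficient against wt, for the 10 surface markers (black) and each other gene list (blue), filled where the edgeR adjusted p is under 0.05, with a red line at the median. The surface markers have a median of -0.61, granulocyte and monocyte markers of -2.50 and erythroid markers of 0.00, and *Slamf1* and *Cd48* are also drawn in the SLAM family. The list of lineage antibody targets includes *Itgam*, whose antibody was not used on FL cells.

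Since hnRNP L is an RNA-binding protein that acts on splicing, the exon bins of the 10 genes were tested for a change in usage, meaning the share of a gene's reads on each exon part. This used 5 libraries, 3 wt and hnRNP L deficient replicates 2 and 3. Of 109 bins, 68 had the mean of 10 reads needed, and 0 of them passed diffSpliceDGE, against 51 of 176996 bins over all genes (0.0288%). At an unadjusted p under 0.05 there were 0 as well, against 1.03% of all bins, and 1 without wt replicate 2 and 1 without wt replicate 3. Limma's diffSplice also called 0, against 0.123% of all bins. The depth differed between genes, since the bins of *Cd93* and *Cd34* had a median of 1260 and 769 reads. Those of *Emcn*, *Esam*, *Procr*, *Tek* and *Slamf1* had 15.6, 17.2, 19.8, 21.0 and 26.0. The log2 change in usage was between -0.11 and 0.29 for the 9 bins of *Cd34*, -0.15 and 0.39 for the 2 of *Cd93*, and -0.03 and 0.10 for the 4 tested bins of *Cd48*. For *Emcn* it ran from -1.31 to 1.14, so that a change of that size in single bins was not detectable there. No bin of *Ly6a* or *Thy1* could be tested.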

How the data were processed

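RNA-seq libraries of FL Lin-cKit+ cells from 3 wt and 3 hnRNP L deficient embryos were grouped by the genotype in the labels. The authors aligned the reads to GRCm38 (mm10 in the processing notes) with TopHat2 2.0.10, obtained counts per Ensembl gene by HTSeq and counts per exon bin by the DEXSeq script, and deposited both without normalization. The Ensembl release and counting options are not given in the sources used here. Between 46.7% and 53.3% of the reads per library had no gene assigned, for any reason, and were left out.

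Gene counts were tested with edgeR 4.0.16 in R 4.3.3 (TMM, default filter, robust quasi-likelihood test), with Benjamini-Hochberg adjustment over all 14396 genes and a call at an adjusted p under 0.05. The SE is the absolute log2 fold change over the square root of F. Exon bins with a mean of 10 or more reads were tested with diffSpliceDGE. The exact permutation test used SciPy 1.17.1. The edgeR and diffSpliceDGE steps were tested on simulated data. The 3-read level covers counting error only, not the spread between embryos.

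The alternatives were DESeq2 1.42.0, limma-voom (limma 3.58.1), other scalings and filters, no robust estimation, a test against a 2-fold change, a pseudocount of 1, a bin minimum of 50 reads and leaving out each library. The genes and lists were chosen with earlier results of these data known. Named genes were the 10 members, the 3 most alike of the 3 most abundant members, up to 4 of the most abundant of each list, and *Hnrnpl*. Genes that fell or rose in a list are named in addition, except for a few that are counted in their lists but not reported here. The promoter of *Cd48* lies inside a longer RefSeq gene model and was not printed.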

Additional observations from a re-analysis of the deposited data

How the results depend on the processing

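DESeq2, median-of-ratios factors, total counts, no filter and no robust estimation each left 4 of the 10 genes lower and 0 higher, a filter of 1 CPM in 3 libraries 4 and 0 of the 8 it kept, and limma-voom gave 5 and 0. Tested against a 2-fold change, 0 passed. Leaving out 1 library gave 0 to 4 lower, namely 0 without wt replicate 3 or any hnRNP L deficient replicate, and 4 otherwise. In every edgeR fit, also that with all libraries, the deficient group is assumed to vary like the wt group. The cause of the loss was not tested, and it touched the whole table. Of the other lists, 35 genes were lower (31.5% of those tested) and 3 higher (2.7%), against 9.85% and 9.32% of all genes. Against a 2-fold change these were 0 and 0, the lower and higher counts were 51 and 5 with DESeq2, 50 and 5 with limma-voom and 27 and 4 without a filter, and leaving out 1 library gave 0 to 44 lower and 0 to 5 higher. The sign turned for *Ly6a* (log2 fold change -0.89 to 0.05 with 1 library left out, the latter without wt replicate 3), for *Thy1* (0.75 with limma-voom, and -1.1 to 0.62 with 1 library left out, the latter without wt replicate 2) and for *Esam* (0.55 between the embryos with a shared first number). The cause was not tested. No paired analysis was possible because the labels give no replicate numbers, and 1 wt and 1 deficient embryo share a first number. Depth limits *Ly6a*, *Thy1* and most exon bins of *Emcn*, *Esam*, *Procr*, *Slamf1* and *Tek*.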
